A study of Mus musculus with 5 samples.

Results

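The Skint genes (selection and upkeep of intraepithelial T cells) encode membrane proteins of the butyrophilin-like group, with immunoglobulin-like domains outside the cell and several membrane-spanning segments. They are made by keratinocytes and by epithelial cells of the thymus. Skint1, the founding member, is required for the selection of the gamma delta T cells that later settle in the mouse epidermis as dendritic epidermal T cells, whose receptor uses the gamma chain segment Tcrg-V5. The other members are named for their sequence likeness to Skint1 and lie beside it on the chromosome. Their transcripts in RNA of sorted dermal group 2 innate lymphoid cells (dILC2s) were examined gene by gene, in every library.

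The members were the genes Skint1 to Skint10, chosen by symbol, 10 of the 47729 genes in the deposited table of counts. All 10 passed the filter on low counts. RNA was sequenced from dILC2s sorted from the skin of C57BL/6 mice without any stimulation, in 3 wild-type (WT) pools (pools 5, 6 and 13) and 2 pools labelled Rag1-/- (pools 2 and 7). By the study's methods the mice were female and 8 to 13 weeks old, 10 mice were pooled for each WT library and 9 for each Rag1-/- library, whereas the labels give 30 WT and 16 Rag1-/- mice. Rag1-/- mice carry the deletion in the whole body and lack mature T and B cells, so that the genotype of the sorted cells and that of the skin around them cannot be told apart. The gate kept viable CD45+CD90hi cells without CD2/CD3 signal, which should remove keratinocytes. The labels name the cell type of the 2 Rag1-/- libraries as type 3 and that of the WT libraries as type 2, while the protocols call all of them dILC2s.

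The libraries held 32939428 to 39477243 counts in WT, and 8050562 (pool 2) and 38922750 counts (pool 7) in the libraries labelled Rag1-/-. The smallest level the depth can show, taken as 3 counts, was therefore 0.373 CPM (counts scaled to a common library total) in Rag1-/- pool 2 and at most 0.0911 CPM in the others, a limit that covers counting error only. The targeted gene had few counts and could not be used to check the labels. WT pools 5, 6 and 13 had 4, 0 and 5 counts of Rag1, whereas pools 2 and 7 labelled Rag1-/- had 5 and 48. Its log2 fold change, labelled Rag1-/- over WT, came to 3.53 with a standard error (SE) of 1.03 and did not pass (adjusted p = 0.0865, edgeR). Whether the deleted part of the gene was counted is not known from the files, so that these counts do not test the labels. The groups below are those of the labels, and every direction rests on them. By these labels Thy1 (log2 fold change 1.89, adjusted p = 0.0306, edgeR), which encodes the CD90 of the gate, Il5 (2.79, adjusted p = 0.0360) and Il13 (2.36, adjusted p = 0.0309), the type 2 cytokines, were higher in the libraries labelled Rag1-/-. Il7r, a receptor of innate lymphoid cells, had 1.75 and did not pass (adjusted p = 0.0746, edgeR). ILC2 markers were present in all libraries, with WT libraries at 248.9 ± 62.8 CPM of Gata3 (SD, n = 3) and those labelled Rag1-/- at 463.7 ± 133.4 CPM (SD, n = 2). Markers of keratinocytes were present as well. The summed level of 40 keratinocyte genes ranged from 37370 to 54590 CPM in WT and was 9315 and 22110 CPM in Rag1-/- pools 2 and 7, against 1032 to 2466 CPM in WT and 8133 and 7160 CPM in pools 2 and 7 for 25 genes shared by leukocytes. In bulk RNA, fewer cells of a type and less RNA per cell cannot be told apart.

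The 10 genes lay together on chromosome 4 of GRCm38, from position 111919392 to 113999503, a stretch of 2.08 Mb. The order along the chromosome was Skint8, Skint7, Skint1, Skint4, Skint3, Skint9, Skint2, Skint10, Skint6 and Skint5, followed by Skint11, which is not a member. Of the 11 genes, 7 were on the plus strand and 4, Skint9, Skint10, Skint6 and Skint5, on the minus strand. Skint6 and Skint5 had the longest spans, 482 kb and 522 kb, although their exons together covered 3824 and 4590 bases. The start and end of all 11 genes in the deposited table equalled those of GENCODE M21 on the same build. Between the first Skint gene and the end of Skint11 the table listed 14 other genes, and only 4 of them, Gm12820, Gm12814, Gm12816 and Gm15741, had 10 or more counts in a library. These 14 genes had 193 counts over the 3 WT libraries and 34 over the 2 labelled Rag1-/-, where the 10 Skint genes had 17623, 12573 and 8107 counts in WT pools 5, 6 and 13. Of the counts given to genes of the locus, nearly all were therefore on the Skint genes. Reads assigned to no gene are absent from the counts.

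The sequences before the starts of the genes are shown because they group the members in a way that their names do not. In the RefSeq table of GRCm38.p6, the 250 bases before the start were compared for the 11 Skint genes, with Skint4 having a pair of starts. The block AGTACTTGAGTAAT, on either strand, was found before Skint1, Skint3, Skint4, Skint5 and Skint6. It was found in 5 of 32851 such windows in the whole table (0.0185% of 27025 genes), all of them Skint genes. The block was picked as a sequence shared between Skint genes, so that these matches were given by the choice and are not a test. It is printed in capitals within 60 bases of each gene, 5′ to 3′ on the gene's own strand.
Skint1 (chr4:112006019-112006078, plus strand): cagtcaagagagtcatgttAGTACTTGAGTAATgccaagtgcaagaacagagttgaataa
Skint4, second start (chr4:112081404-112081463, plus strand): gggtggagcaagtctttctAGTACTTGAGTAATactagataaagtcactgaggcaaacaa
Skint3 (chr4:112232123-112232182, plus strand): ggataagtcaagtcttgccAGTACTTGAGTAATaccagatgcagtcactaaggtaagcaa
Skint6 (chr4:113287161-113287220, minus strand): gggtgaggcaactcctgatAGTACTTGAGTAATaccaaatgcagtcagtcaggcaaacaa
Skint5 (chr4:113999691-113999750, minus strand): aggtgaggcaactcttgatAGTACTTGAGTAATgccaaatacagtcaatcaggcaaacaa

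A second block, TGACTTTCATAAA, picked in the same way, was shared by Skint9, Skint10 and Skint11. The second block was found in 3 of 32851 windows (0.0111% of 27025 genes), again all of them Skint genes. It is in capitals in the stretches that follow.
Skint9 (chr4:112434144-112434203, minus strand): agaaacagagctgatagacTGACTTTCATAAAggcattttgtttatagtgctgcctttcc
Skint10 (chr4:112774934-112774993, minus strand): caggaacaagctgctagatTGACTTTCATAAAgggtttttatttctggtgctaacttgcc
Skint11 (chr4:114163303-114163362, plus strand): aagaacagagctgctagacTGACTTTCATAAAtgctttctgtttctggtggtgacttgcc

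Skint7 and Skint8 shared a run of 51 identical bases, which lies at chr4:111972875-111972925 before Skint7 (its last 3 bases are in the first exon) and at chr4:111919325-111919375 before Skint8, both on the plus strand. Capitals mark the identical bases, here all of them.
Skint7 and Skint8: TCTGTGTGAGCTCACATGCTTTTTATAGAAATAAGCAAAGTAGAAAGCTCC

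Over the whole 250 bases, Skint5 and Skint6 were 88.8% identical, where the median of 66 pairs of windows was 47.5%. Skint7 and Skint8 were 49.6% identical, near that median. Their shared run begins 230 bases before the RefSeq start of Skint8 and 52 bases before that of Skint7. Skint2 held neither block. Of 4 short motifs searched on both strands, TATAAA, the core of the TATA box, was found before 7 of the 11 genes and before 14.3% of all genes in the table. The AP-1 core TGANTCA was found before Skint11 alone (7.82% of all genes), AGATAA before Skint4 alone (11.4%), and CACCC before 5 of the 11 (54.5%). The motifs do not overlap either block. Within the printed bases, TATAAA stands on the strand opposite to the gene (as TTTATA) before Skint7, Skint8 and Skint9. Before Skint7 and Skint8 this match lies in their shared run. A match describes letters in a window and was not tested as a binding site.

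The Skint genes differed widely from each other in level within WT. Levels between genes were compared as CPM per kilobase of the union of exons in GENCODE M21. Skint9 had the highest level, 45.4 ± 11.8 CPM per kb (SD, n = 3), and Skint5 followed with 17.7 ± 6.37. Skint6 (12.5 ± 5.36), Skint1 (12.4 ± 1.69) and Skint3 (11.2 ± 4.06) had similar levels, and so had Skint4 (6.80 ± 2.08) and Skint10 (6.64 ± 1.80). Skint7 had 2.34 ± 0.644, Skint8 0.551 ± 0.180 and Skint2 0.458 ± 0.275 CPM per kb. Taking the log2 ratio of each gene to the next within each WT library, Skint6 and Skint1, Skint1 and Skint3, Skint4 and Skint10, and Skint8 and Skint2 did not differ beyond the SD of that ratio. The other neighbours kept their order in 3 of 3 WT libraries, with Skint7 4.30-fold above Skint8 and Skint10 2.84-fold above Skint7. The order depends on the length used. The transcript length in the deposited table gives Skint1 only 603 bases. By that length Skint1 was the highest, with a WT mean of 62.2 CPM per kb. Skint9 followed with 45.4, and Skint10 (18.05) and Skint5 (18.04) were level behind it.

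**Figure D1:**
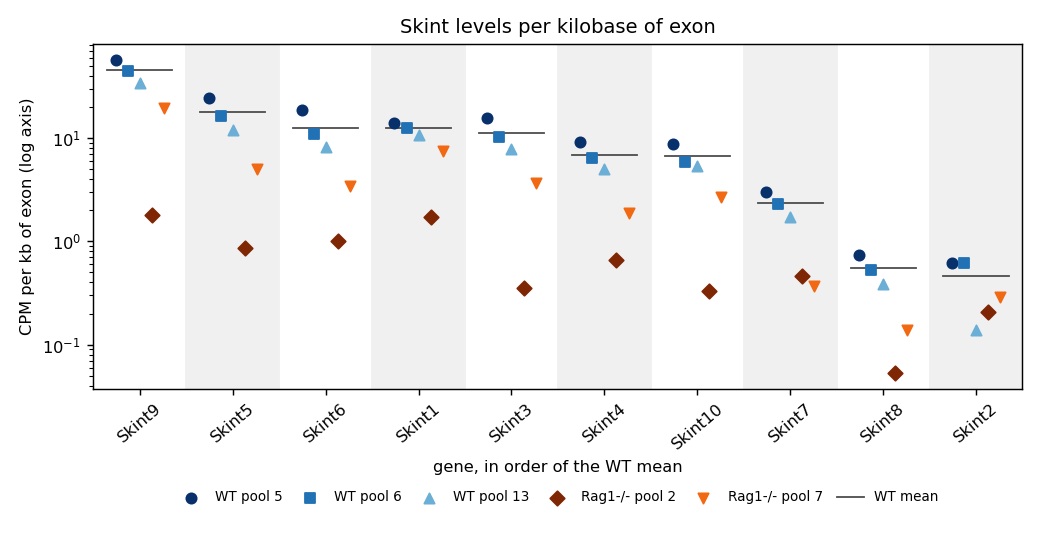
Level of each Skint gene in CPM per kilobase of exon (vertical, log axis), with genes in order of the WT mean (horizontal). Points are single libraries and the line is the mean of the 3 WT libraries, from 45.4 for Skint9 to 0.458 for Skint2. The 2 libraries labelled Rag1-/- lie below the WT libraries in each gene but Skint2.

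Reads of some members could fall on another. Of all stretches of 50 bases, the length of the reads, in the transcripts of Skint6, 21.9% matched another gene of the locus with at most 2 mismatches, nearly all of them Skint5, and 18.3% of those of Skint5 matched, nearly all of them Skint6. The same held for Skint7 (15.7%) and Skint8 (13.6%) with each other. For Skint2 it was 10.5%, mostly with Gm12814. The share was 2.72% in Skint9, 1.87% in Skint3, 1.27% in Skint4, 0.696% in Skint10 and 0.0996% in Skint1. How the authors' counting treated such reads cannot be told from the counts, so that the split between Skint5 and Skint6 and between Skint7 and Skint8 is less certain than the other levels. Only Skint6 shared annotated exon bases with another gene, 63 bases with Gm12823, which had 2 counts or fewer in each library.

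Skint transcripts were less abundant in the libraries labelled Rag1-/-. Summed over the 10 genes they made up 454.2, 318.5 and 246.1 CPM in WT pools 5, 6 and 13, and 23.6 and 120.5 CPM in Rag1-/- pools 2 and 7. The means were 339.6 ± 105.7 CPM (SD, n = 3) and 72.0 ± 68.5 CPM (SD, n = 2), a ratio of 4.71. The groups did not overlap, and the pools labelled Rag1-/- differed from each other by 5.11-fold, more than the 1.85-fold between WT pools 5 and 13. Genotypes were compared with edgeR's quasi-likelihood test over 19011 genes, with Benjamini-Hochberg adjustment. A gene was called where the adjusted p-value was under 0.05 and the log2 fold change was above 1 or below -1. Of the 10 Skint genes 2 were called, Skint7 and Skint4, both lower in the libraries labelled Rag1-/-. Over all genes tested, 5.73% were called, 2.16% as lower and 3.57% as higher. The log2 fold changes of all 10 genes were negative, with a median of -2.31, where 48.6% of all genes were negative and the median of all genes was 0.02. In 9 of 10 both libraries labelled Rag1-/- had a lower CPM than all WT libraries, as did 24% of all genes tested, and 9 of 10 had an unadjusted p-value under 0.05 (edgeR), as did 26.4% of all genes, 12.3% with a negative log2 fold change. With 3 libraries against 2, exact permutation of the labels for one gene cannot reach 0.05, so that these p-values rest on the spread shared across genes by the fit.

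Skint7 fell. It had 467, 359 and 228 counts in WT pools 5, 6 and 13, which is 12.0, 9.09 and 6.92 CPM. Rag1-/- pools 2 and 7 held 15 and 57 counts of it, which is 1.86 and 1.46 CPM. The libraries labelled Rag1-/- were close to each other in this gene, as they were in Skint2, and here each was far below the lowest WT library. The fitted log2 fold change was -2.48 (SE 0.39, adjusted p = 0.0306, edgeR). Skint4 fell as well, from 39.6, 27.8 and 21.7 CPM in the WT pools to 2.86 and 8.30 CPM in Rag1-/- pools 2 and 7, by a fitted log2 fold change of -2.30 (SE 0.49, adjusted p = 0.0433, edgeR). In this gene the 2 Rag1-/- libraries were 2.90-fold apart.

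Skint1, the member with a known part in T cell selection, had 42.3, 38.1 and 32.2 CPM in WT pools 5, 6 and 13, the narrowest spread among the members. It had 5.22 CPM in Rag1-/- pool 2 and 22.4 CPM in pool 7, so that pool 7 came within 1.44-fold of the lowest WT library. The log2 fold change was -1.35 (SE 0.54), which did not pass (adjusted p = 0.168, edgeR). Skint2, the member with the lowest level, had 57, 58 and 11 counts in the WT pools and 4 and 27 counts in Rag1-/- pools 2 and 7. WT pool 13, at 0.334 CPM, was below both libraries labelled Rag1-/-, at 0.497 and 0.694 CPM, and the groups overlapped (log2 fold change -0.79, SE 0.77, adjusted p = 0.573, edgeR). The 4 counts of pool 2 lie just above the limit of its depth.

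The remaining members had log2 fold changes between -2.47 and -1.98, and none of them passed. Skint5, the gene with the most counts, had 112.9, 75.0 and 55.4 CPM in the WT pools and 3.98 and 23.1 CPM in Rag1-/- pools 2 and 7 (log2 fold change -2.47, SE 0.69, adjusted p = 0.0794, edgeR). Skint6 had 70.9, 41.5 and 31.4 CPM against 3.85 and 13.2 (log2 -2.38, SE 0.58, adjusted p = 0.0571, edgeR). Both libraries labelled Rag1-/- were below all WT libraries in these genes, with pool 2 the lower one.

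Skint3 (60.4, 39.4 and 29.9 CPM in WT, 1.37 and 14.0 CPM in pools 2 and 7) and Skint9 (78.7, 61.6 and 46.4 CPM in WT, 2.48 and 26.6 CPM in pools 2 and 7) differed most between the 2 libraries labelled Rag1-/-, by 10.2-fold and 10.7-fold. Their log2 fold changes were -2.34 (SE 0.79, adjusted p = 0.119, edgeR) and -1.98 (SE 0.80, adjusted p = 0.171, edgeR). Skint10 had 32.5, 22.0 and 20.0 CPM in WT, and 1.24 and 10.1 CPM in pools 2 and 7 (log2 -1.98, SE 0.71, adjusted p = 0.137, edgeR). Skint8 stood at 134, 97 and 59 counts in WT, and at 2 and 25 in pools 2 and 7 (log2 -2.31, SE 0.60, adjusted p = 0.0656, edgeR). The 2 counts are under the limit of 3 counts. Among the WT libraries, pool 5 was the highest and pool 13 the lowest in every member but Skint2, where pools 5 and 6 had the same level. Skint11, the neighbouring family gene, stood at 762, 515 and 291 counts in WT, and at 12 and 168 in pools 2 and 7 (log2 -2.12, SE 0.54, adjusted p = 0.0649, edgeR).

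**Figure D2:**
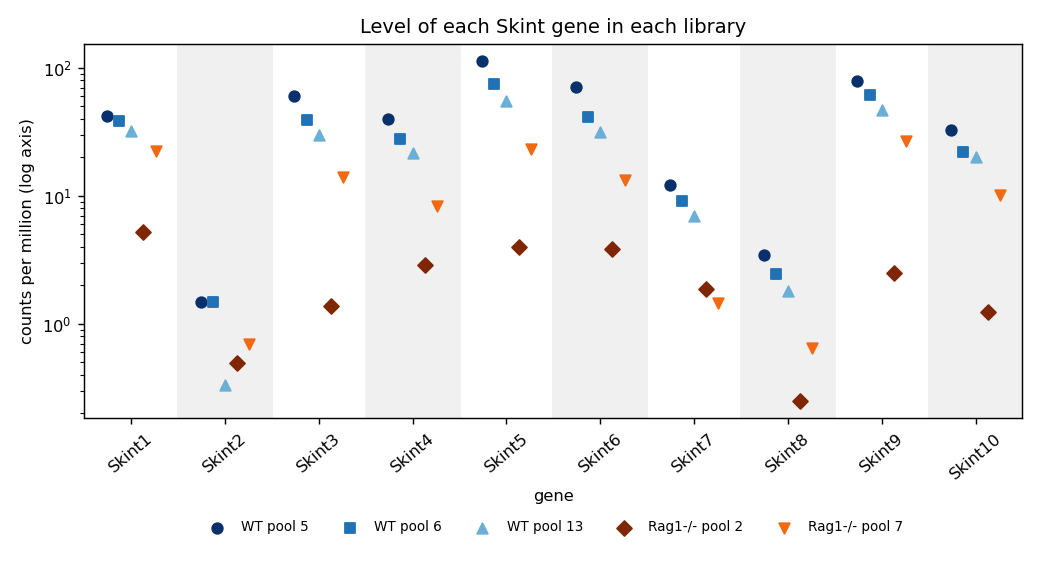
CPM of each Skint gene (vertical, log axis) in each library, 3 WT pools (blue) and 2 pools labelled Rag1-/- (orange and brown). Rag1-/- pool 2 is the lowest library in all members but Skint7 and Skint2, and the groups overlap in Skint2 alone.

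How many members were called depended on the library and the setting. With DESeq2, 6 of 10 passed (Skint1, Skint4, Skint5, Skint6, Skint7 and Skint8), where 7.65% of the 16428 genes to which DESeq2 gave an adjusted p-value were called as lower. Without Rag1-/- pool 7, 9 passed, where 7.98% of all genes were called as lower, and Skint9 had a log2 fold change of -4.71 against -1.15 without pool 2. Without pool 2 or without any of the WT pools 5, 6 and 13, no member and no other gene passed with edgeR, while 6 to 9 members and 3521 to 5200 genes had an unadjusted p-value under 0.05. These fits tested 18386 to 20168 genes, and the counts of genes take in both directions. A single library then stands for its group in the fits with 1 Rag1-/- library, and its spread is taken from the WT libraries.

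The same libraries differed in keratinocyte transcripts. A list of 18 genes of suprabasal keratinocytes, the differentiating layers, had summed levels of 20500, 12830 and 10050 CPM in WT pools 5, 6 and 13 and 939.1 and 7694 CPM in Rag1-/- pools 2 and 7. A list of 12 genes of basal keratinocytes, the dividing layer on the basement membrane, had 20070, 17890 and 17450 CPM in WT and 6095 and 8821 CPM in pools 2 and 7. All 40 keratinocyte genes, which include 10 shared by both layers, had a negative log2 fold change, and 11 of them were called as lower. The median was -1.44 in the basal list (8 of 12 called), -1.66 in the suprabasal list (1 of 18 called) and -1.43 in the shared list (2 of 10 called), against -2.31 in the Skint genes. The log2 fold change was -1.15 in Krt14, a keratin of the basal layer (SE 0.33, adjusted p = 0.0840, edgeR). In Krt10, a keratin of the suprabasal layers, it was -1.73 (SE 0.85, adjusted p = 0.248, edgeR). Hair follicle markers had a median of -1.49 with 2 of 13 called, Lgr6 and Sox9. The list of leukocyte genes had a median of 2.00 with 18 of 25 called as higher. The medians of fibroblast (-0.12), endothelial (-0.49), melanocyte (-0.47), mast cell (-0.48) and Langerhans and myeloid genes (0.35) were nearer to 0, and none of their 41 tested genes was called with edgeR, where 4 had an unadjusted p-value under 0.05, and 3 were called with DESeq2.

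**Figure D3:**
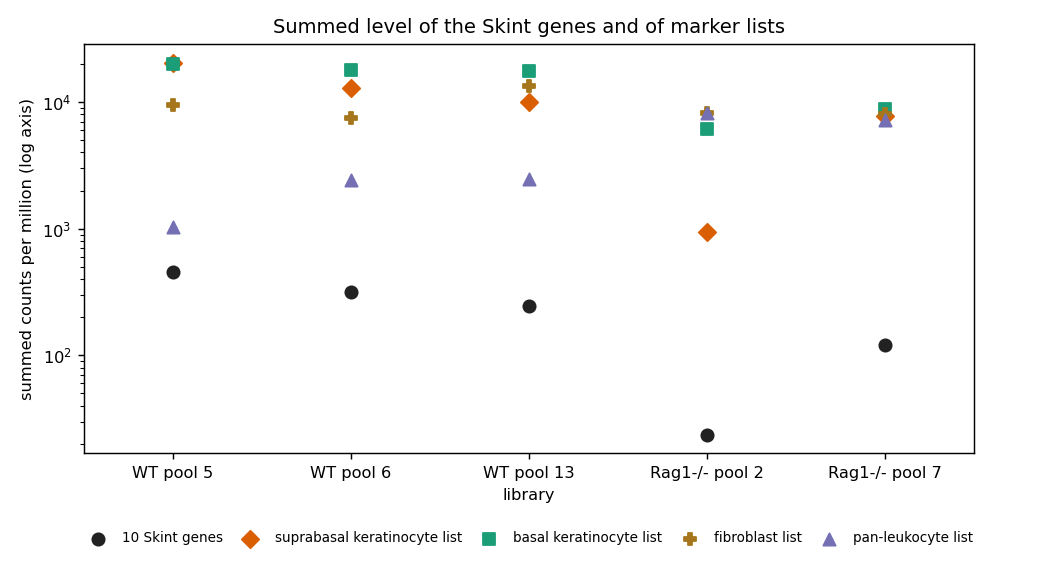
Summed CPM (vertical, log axis) of the 10 Skint genes and of 4 marker lists in each library (horizontal). The Skint sum and the suprabasal list are both highest in WT pool 5 (454.2 and 20500 CPM) and lowest in Rag1-/- pool 2 (23.6 and 939.1 CPM), while the leukocyte list is lowest in WT pool 5 (1032 CPM) and highest in Rag1-/- pool 2 (8133 CPM).

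Counted against suprabasal transcripts, the sum of the Skint genes differed little between 4 of the 5 libraries, while single members differed in both directions. In the sum there were 22.2, 24.8 and 24.5 Skint counts per 1000 counts of the suprabasal list in WT pools 5, 6 and 13, 25.1 in Rag1-/- pool 2 and 15.7 in Rag1-/- pool 7. The means were 23.8 ± 1.45 (SD, n = 3) and 20.4 ± 6.70 (SD, n = 2), and the groups overlapped. Krt10 alone held 437555 of the 795269 suprabasal counts of WT pool 5. It held 3820 of 7560 in Rag1-/- pool 2 and 161135 of 299485 in pool 7, so that this scale leans mostly on that gene. Against the basal list the values were 22.6, 17.8 and 14.1 in WT and 3.87 and 13.7 in pools 2 and 7, without overlap, with a ratio of the means of 2.07. The balance of the layers itself differed between the libraries. Suprabasal counts were 1.02, 0.717 and 0.576 times the basal counts in the WT pools, 0.154 times in Rag1-/- pool 2 and 0.872 times in pool 7. Of the single members, Skint3, Skint5, Skint9 and Skint10 were lower per suprabasal count in both libraries labelled Rag1-/- than in all WT libraries. In pool 2 these values rest on 11, 32, 20 and 10 counts. The share of all genes that do so on this scale was not computed, so that the number of members is a description only. For Skint3 there were 295, 307 and 298 counts per 100000 suprabasal counts in WT and 146 and 182 in pools 2 and 7. The other 6 members were above all WT libraries in pool 2, so that they offset these 4 in the sum. On the same scale of 100000 suprabasal counts, Skint1 had 556 in pool 2 against 206 to 321 in WT and 290 in pool 7. Skint7 had 198 in pool 2 and 58.7 to 70.9 in WT, with pool 7 below all WT libraries, and Skint2 had 52.9 in pool 2 (4 counts), 3.32 to 11.4 in WT and 9.02 in pool 7. The part of the keratinocyte transcripts in the difference of the Skint genes was not tested beyond these values and the fits that follow.

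The fit was repeated with the summed keratinocyte counts of each library as its size. No Skint gene was then called with edgeR, 1 (Skint5) had an unadjusted p-value under 0.05, and the median of their log2 fold changes was -0.90, while the median of all genes moved to 1.70 and 57.8% of all genes were called as higher. Skint5 (log2 -1.24, adjusted p = 0.0679, edgeR) and Skint3 (log2 -1.21, adjusted p = 0.0811, edgeR) then had the lowest values, Skint7, the lowest with TMM, came to -0.74, Skint1 to -0.09 and Skint2 to 0.75. With the basal list alone, which moved the median of all genes to 1.32, that of the Skint genes was -1.14 and 2 of them were called, where 0.174% of all genes were called as lower, Skint4 (log2 -1.13, adjusted p = 0.0375, edgeR) and Skint6 (log2 -1.22, adjusted p = 0.0469, edgeR). With the suprabasal list alone (median of all genes 2.93), none was called and 0 had an unadjusted p-value under 0.05 with edgeR, the median of the Skint genes was -0.26 and the standard errors were 1.30 to 1.67. Skint1, Skint2 and Skint7 had positive values there, of 0.61, 1.83 and 0.62. With the leukocyte list all 10 were called as lower, as were 70% of all genes, since the median of all genes moved to -2.18. The number of Skint genes called thus ran from 0 to 10 with the scaling.

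**Figure D4:**
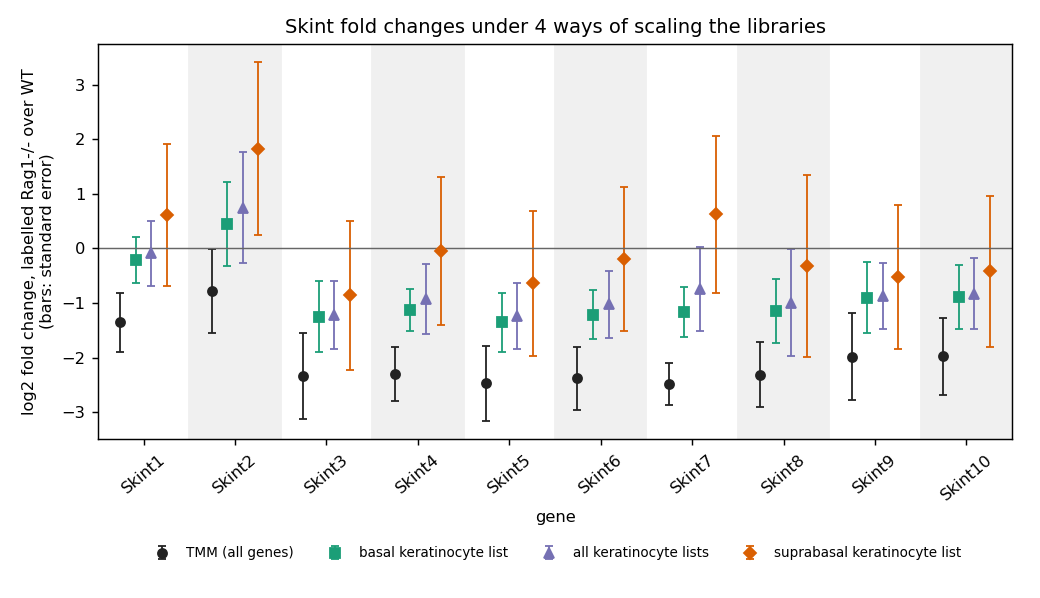
Log2 fold change of each Skint gene, libraries labelled Rag1-/- over WT (vertical, bars are standard errors), with 4 ways of scaling the libraries. With TMM all 10 values are below 0 (median -2.31), with the basal list 9 are, and with the suprabasal list 7 are.

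The share that each member holds of the summed counts of the 10 genes does not depend on library size or scaling. In WT the make-up was similar in some members and varied in others. Skint5 held 24.9%, 23.6% and 22.5% of Skint counts in pools 5, 6 and 13, and Skint4 8.71%, 8.74% and 8.81%. Skint9 held 17.3%, 19.4% and 18.9%. Skint1 ran from 9.32% to 13.1%, Skint6 from 12.8% to 15.6% and Skint2 from 0.136% to 0.461%. The 95% Wilson intervals of WT pool 5 lay apart from those of pools 6 and 13 in Skint1 (8.90% to 9.76%) and Skint6 (15.1% to 16.1%). In Skint9 the interval of pool 5 (16.8% to 17.9%) lay apart as well, just under that of pool 13 (18.0% to 19.7%). Both libraries labelled Rag1-/- lay outside the range of the WT libraries in all 10 genes. They did so on opposite sides in 6 of them, so that 4 genes had shares without overlap between the groups in one direction. No background from other genes was computed for such counts, so that they are a description only.

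Skint1 held more of the family's counts in the libraries labelled Rag1-/-, 22.1% in pool 2 (95% Wilson interval 16.8% to 28.5%, 190 Skint counts in all) and 18.6% in pool 7 (17.5% to 19.7%, 4690 counts), against 9.32%, 12.0% and 13.1% in the WT pools. The means differed by 8.87 percentage points. Skint1 counts were 1.31 and 0.967 times those of Skint5 in pools 2 and 7 and 0.375, 0.507 and 0.581 times in WT. Skint5 held less, 16.8% (12.2% to 22.8%) and 19.2% (18.1% to 20.3%), 5.63 points under the WT mean of 23.6% ± 1.18 (SD, n = 3). The interval of pool 2 reached that of WT pool 13. Skint3 held 5.79% (3.26% to 10.1%) in pool 2 and 11.6% (10.7% to 12.6%) in pool 7, under 12.2% to 13.3% in WT, where the interval of pool 7 overlapped those of WT pools 6 and 13. Skint2 held 2.11% in pool 2 (0.822% to 5.29%, 4 counts) and 0.576% in pool 7 (0.396% to 0.836%), above 0.136% to 0.461% in WT. The interval of pool 7 overlapped those of WT pool 5 (0.25% to 0.419%) and WT pool 6 (0.357% to 0.596%). Of these 4 genes, Skint1 alone had intervals apart from those of all WT libraries in both pools.

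The 6 members on opposite sides included both genes that were called. Skint7 held 2.65%, 2.86% and 2.81% in WT, 7.89% (4.84% to 12.6%) in pool 2 and 1.22% (0.939% to 1.57%) in pool 7, and both intervals lay apart from those of all WT libraries. Skint9 went the other way, with 10.5% (6.92% to 15.7%) in pool 2 and 22.1% (20.9% to 23.3%) in pool 7. Skint4 held 12.1% (8.20% to 17.5%) in pool 2, an interval that takes in the WT shares, and 6.89% (6.20% to 7.65%) in pool 7. Skint6, Skint8 and Skint10 were on opposite sides too. In pool 2, 5 of the 10 intervals lay apart from those of all WT libraries, and in pool 7 6 did. The 10 shares add up to the whole and so are not independent, and the intervals cover counting error only.

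**Figure D5:**
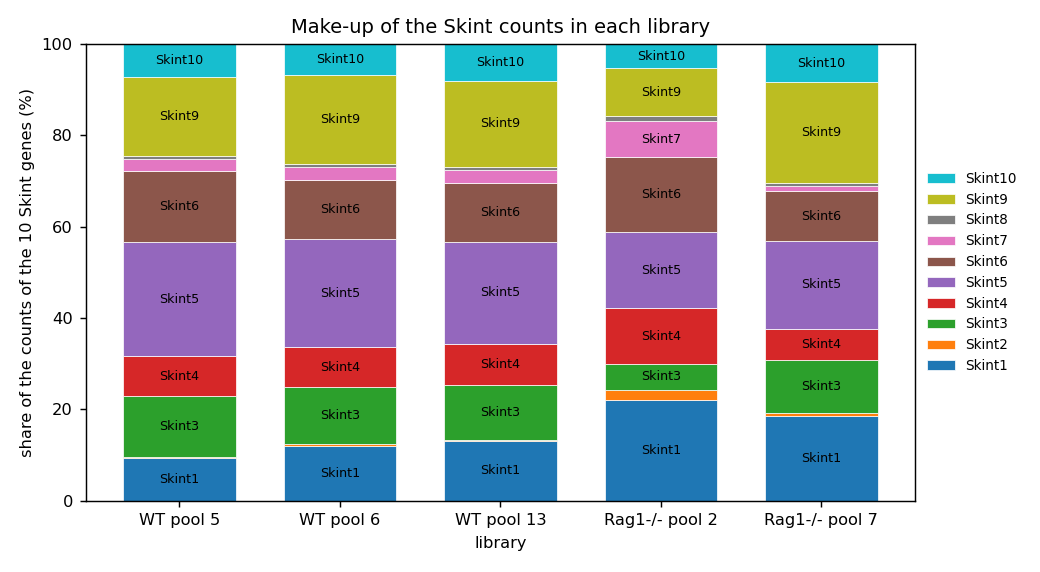
Share of each Skint gene in the summed counts of the 10 genes (vertical, percent) in each library. In the 3 WT bars Skint5 holds 22.5% to 24.9%, Skint1 (bottom) is wider in both libraries labelled Rag1-/- (22.1% and 18.6%), and Skint7 is wider in pool 2 and Skint9 in pool 7.

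Other ligands and receptors of epidermal T cells differed in both directions. Of a list of 12 other genes, mostly keratinocyte ligands but with receptors such as Tnfrsf9 among them, 11 were tested, 1 was called as lower and 2 as higher, with a median of -0.86. Cxadr, the ligand of the costimulatory receptor Jaml, fell from 444.8 ± 17.0 CPM (SD, n = 3) to 134.7 ± 31.2 CPM (SD, n = 2), which is a log2 fold change of -1.68 (SE 0.24, adjusted p = 0.0306, edgeR). H60c, an NKG2D ligand of the skin, stood at 1419, 1221 and 788 counts in WT, and at 30 and 435 in Rag1-/- pools 2 and 7 (log2 -1.93, SE 0.47, adjusted p = 0.0570, edgeR). Ulbp1, another NKG2D ligand, rose (log2 2.00, SE 0.42, adjusted p = 0.0411, edgeR), and so did Tnfrsf9, the costimulatory receptor 4-1BB (log2 2.27, SE 0.42, adjusted p = 0.0333, edgeR). Of 10 other butyrophilin genes only Btnl9 (log2 fold change 0.07) and Ermap (0.36) had enough counts to be tested, and neither passed (adjusted p = 0.955 and 0.737, edgeR).

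Of a list of 20 receptor and signalling genes of epidermal T cells, 18 were tested, 2 were called as lower and 5 as higher, with a median of 0.69. The listed genes are not all particular to these T cells. Itgae encodes CD103, which the study describes as high on dILC2s. Which cells the reads of this list came from was not tested. Tcrg-V5, the gamma chain segment of epidermal T cells, fell from 124, 125 and 85 counts in WT to 6 and 19 in Rag1-/- pools 2 and 7 (log2 fold change -2.31, SE 0.47, adjusted p = 0.0383, edgeR). Trdv4, a delta chain segment of the same list, went the other way. It had 11.1, 26.2 and 19.8 CPM in WT pools 5, 6 and 13 and 44.0 and 29.2 CPM in pools 2 and 7. Its log2 fold change was 0.96 (SE 0.37) and did not pass (adjusted p = 0.157, edgeR). Egr3, a transcription factor induced by receptor signals, fell by 1.54 on the log2 scale (SE 0.23, adjusted p = 0.0306, edgeR). By log2 fold change, the 5 genes that rose were Cd3g (2.23), Cd247 (1.71), Jaml (2.09), Sema4d (1.63) and Itgae (2.38), with adjusted p from 0.0306 to 0.0401 (edgeR). Trdj1, a joining segment of the delta chain, had a log2 fold change of 3.03 and did not pass (adjusted p = 0.0999, edgeR). The constant segments Tcrg-C1 and Trdc had log2 fold changes of 0.02 and 0.18 (adjusted p = 0.987 and 0.714, edgeR). Of 12 T cell markers 10 were tested and 3 rose, Cd3g, Trac and Trbc2, with a median of 1.23. The log2 fold changes of 9 were positive, among them Cd3e (0.32) and Cd3d (0.38), which did not pass. That of Cd5 was negative (-1.48, adjusted p = 0.135, edgeR). Rag1-/- mice lack mature T cells and the gate left out CD2/CD3 signal, so that these transcripts give no number of T cells. Of 18 ILC2 markers 5 rose, Thy1, Il5, Il13, Areg and Arg1, with a median of 1.84.

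The genes whose levels followed the Skint sum most closely over the 5 libraries were Lipm, Ano9, Gm9696, Ptk6 and Olr1. Likeness was measured as the root mean square difference of centred log2 CPM, among 15021 other genes with a mean of at least 1 CPM. It was 0.0594 for Lipm, a lipase of the outer epidermis, 0.0899 for Ano9, an anoctamin, 0.102 for Gm9696, 0.121 for Ptk6, a tyrosine kinase of epithelia, and 0.134 for Olr1, a receptor of oxidised lipoprotein. Lipm had 114.9, 87.3 and 67.8 CPM in WT pools 5, 6 and 13 and 6.58 and 31.0 CPM in Rag1-/- pools 2 and 7. The fitted log2 fold change of Lipm was -2.17 (SE 0.61, adjusted p = 0.0801, edgeR), and none of these 5 genes was called. They were chosen for this pattern, so that it is a description and not a test.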

How the data were processed

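RNA of sorted dILC2s was sequenced by the authors as single reads of 50 bases from unstranded polyA libraries (TruSeq v2). STAR 2.5 was used for alignment to GRCm38 and featureCounts 1.5.0-p1 for counting per gene, and the authors deposited raw counts without normalization. The labels and the study's methods name different annotation releases. The deposited transcript length was used for 1 comparison of levels, and it is not stated which transcript it measures. A table of counts divided by a size factor was not used.

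Members were taken by symbol. The members and gene lists were chosen with earlier results of these data known. Low counts were removed with filterByExpr, libraries scaled with TMM, and groups compared with edgeR 4.0.16 in R 4.3.3 (quasi-likelihood test, Benjamini-Hochberg adjustment over 19011 genes) in all 5 libraries. With no statement on separate sorts, p-values measure the spread between pools. CPM were scaled by the library total. DESeq2 1.42.0 was an alternative, as were other scalings, filters, a robust fit, the adjusted p-value alone, and leaving out each library. Scaling on the basal or suprabasal list alone was added after the data were seen. Both tools were checked on simulated counts with known changes.

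All members were named, with called genes or the 3 largest changes of the ligand, butyrophilin and receptor lists, up to 3 abundant genes of each marker list, genes of the locus with at least 10 counts, and the 5 genes most like the Skint sum (prior count 2). Lgr6, Sox9, Gata3, Il7r, Tcrg-C1, Trdc, Trdv4, Cd3d, Cd3e, Cd5 and the called T cell and ILC2 markers were named after their values were seen. Where a symbol stood in several rows of the table, the row with most counts was used, and Jaml was matched by its gene identifier.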

Additional observations from a re-analysis of the deposited data

How the results depend on the processing

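No paired analysis was possible because the groups share no replicate numbers. With edgeR and TMM, 2 Skint genes and 1090 of 19011 genes in all were called. DESeq2 called 6 Skint genes and 2453 of the 16428 genes to which it gave an adjusted p-value. Without a filter on low counts, edgeR called 9 Skint genes and 2645 of 29909 genes. Scaling on keratinocyte genes called 0 and 11049, on pan-leukocyte genes 10 and 13324, on suprabasal keratinocyte genes 0 and 2879, and on basal keratinocyte genes 2 and 10211. Called genes were higher in 62.3% of cases with TMM, 48.8% with DESeq2, 43.7% without the filter, 99.4%, 100% and 99.7% with the keratinocyte, suprabasal and basal lists, and 0.12% with the leukocyte list. RLE scaling, library size alone, a robust fit and the adjusted p-value alone kept 2 Skint genes called, beside 1060 to 1192 genes in all. At least 10 counts in every library gave 3 of the 8 members it kept, where 1497 of 14121 genes were called. Leaving out each library in turn gave 0 to 9 Skint genes and 0 to 2409 genes, where only the fit without Rag1-/- pool 7 called any. Of 148 refitted log2 fold changes of Skint genes, 5 changed sign, all with keratinocyte scaling: Skint2 (0.75 with all lists, 1.83 with the suprabasal and 0.45 with the basal list), Skint1 (0.61) and Skint7 (0.62), both with the suprabasal list. The count of genes whose shares did not overlap was 4, also per kilobase, and ran from 4 to 10 with each library left out, 10 where 1 library labelled Rag1-/- remained. Levels of Skint2 and Skint8 in Rag1-/- pool 2 are limited by its depth.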
